A study of Mus musculus with 8 samples.

Results

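Liver transcript levels on the second internal day were compared with those on the first at 3 matched clock phases. The comparison holds 6 of the 8 libraries of the series. CT47, CT53 and CT65 (second day) were set against CT23, CT29 and CT41 (first day), where CT counts the hours of the internal day. Each second-day library lies 24 h after its partner, so CT47 and CT23 fall late in the subjective night, CT53 and CT29 in the subjective day, and CT65 and CT41 in the middle of the subjective night. The remaining pair, CT59 and CT35 at the end of the subjective day, was left out of the test because the CT35 library stood apart in depth and composition. All mice were wild type, of the strain labelled C57/BL6, and received no treatment. They had been kept for 1 week under light and dark phases of 12 h each and then in continuous darkness from 1 day ahead of sampling. Every library is 1 pool of liver RNA from 3 animals in equal amounts, selected for polyadenylated RNA. No time point has a second library, the animals differ between time points, and sex and age are not given. The p-values therefore rest on 3 phase-matched pairs of pools and do not measure the spread between animals. Nor do the limma p-values and intervals rest on the pairs of each gene alone. A gene has 2 residual degrees of freedom, and limma adds a variance shared across genes, to a median total of 29.9 degrees.

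The circadian clock of the liver is a feedback loop of transcription. BMAL1 (encoded by Arntl) with CLOCK or NPAS2 drives the Per and Cry genes, whose proteins repress that drive, and also the genes of the REV-ERB and PAR bZIP factors, which pass the rhythm on to metabolism. In constant darkness no light cue resets the animals each morning, and the loop runs on its own period. Measured at the same phase a day later, a transcript of a stable rhythm returns to about the same level, whereas one that follows feeding, stress or the individual pool need not.

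The 6 libraries were of similar depth, with 11.7 to 13.9 M reads (M for mega) behind the deposited values and 7.76 to 8.92 M of them on named genes. Introns held 11.9 to 13.5% of the reads on introns and named genes together. The 10 most abundant genes held 20.7 to 23.6% of the reads on named genes. In CT35 the depth was 22.9 M, and introns held 7.86% by the same measure. The first-day libraries carry the lane numbers 2, 1 and 3 in the labels and the second-day libraries 4, 5 and 6, so lane number and day cannot be told apart. Hepatocyte markers dominated every library, with a summed level of 42941 to 59772 RPKM (reads per kilobase and mega of reads) on the first day and 45346 to 54498 RPKM on the second for 7 genes. Of 14 markers of pancreatic acinar cells, 8 were listed at 0 in all 6 libraries.

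Almost no gene passed the test between the days. Of 10907 genes with enough reads, 2 (0.0183%) were called by limma with the clock phase as a block at an adjusted p under 0.05, and both were lower on the second day. None was called higher. At an unadjusted p under 0.05 there were 190 genes (1.74%), of which 108 were higher (0.99%) and 82 lower (0.752%). edgeR and DESeq2, run on the recovered reads with the same block, called 0 genes, with 182 and 70 at an unadjusted p under 0.05. The differences were small as well as uncalled. The median size of the mean log2 difference was 0.09, 95% of the genes lay within 0.30, and only 8 genes exceeded 1 (2-fold). The median SE was 0.19 and the median 95% confidence interval ±0.38. The interval of 10813 genes (99.1%) lay within 1 of 0 on the log2(RPKM + 0.5) scale. For low genes this scale shrinks a fold, so an interval inside 1 does not exclude a 2-fold difference in the reads there.

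The 3 pairs did not move together. The median gene differed by 0.10 (log2) between CT47 and CT23, by 0.07 between CT53 and CT29 and by -0.08 between CT65 and CT41. Differences over 2-fold were seen for 56 genes (0.513%) in the pair CT47 and CT23, for 96 (0.88%) in CT53 and CT29 and for 78 (0.715%) in CT65 and CT41, each with 1 library a side and no test. In the left-out pair, 283 genes (2.59%) differed by over 2-fold. Only 1675 genes (15.4%) moved in 1 direction in all 3 pairs, 1074 of them higher (9.85%) and 601 lower (5.51%). The levels of the days did not overlap, with all 3 second-day libraries above or below all 3 first-day ones, for 254 genes higher (2.33%) and 91 lower (0.834%). Across genes, which are not independent replicates, the log2 differences of CT47 against CT23 and of CT53 against CT29 correlated at r = 0.11. The differences of CT65 against CT41 correlated with those of the other two pairs at -0.27 and -0.24. These pairs share no library. Libraries of the same phase correlated at 0.986 to 0.987 and libraries of different phases at 0.970 to 0.988.

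**Figure D1:**
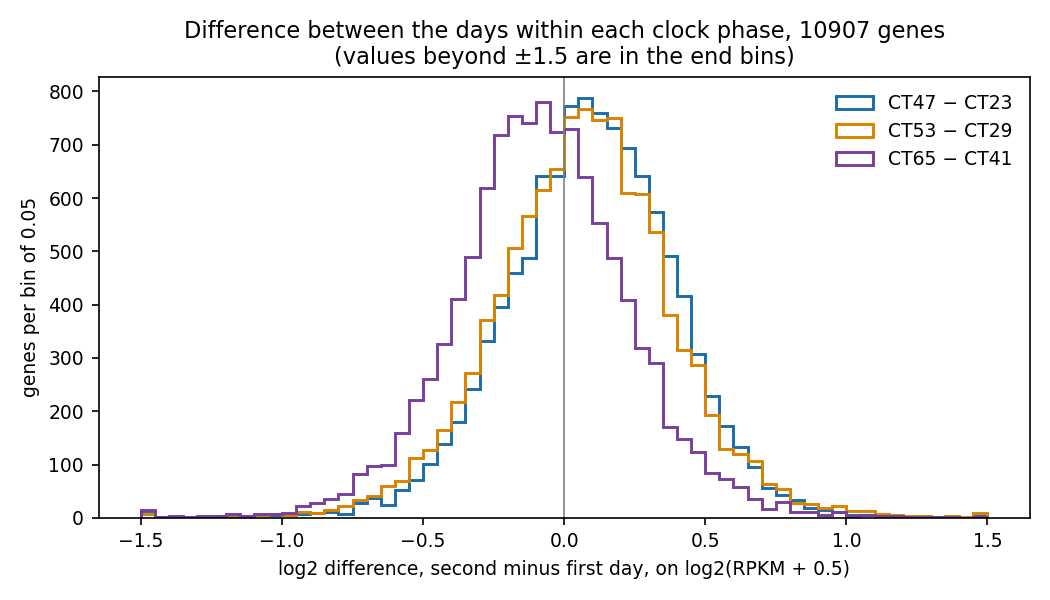
Number of genes (y axis) by log2 difference between second and first day on the log2(RPKM + 0.5) scale (x axis), for each of the 3 phase-matched pairs of libraries over 10907 genes. The curves of CT47 against CT23 and CT53 against CT29 are centred above 0, with medians of 0.10 and 0.07, and that of CT65 against CT41 below 0, with a median of -0.08.

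The call of smallest p was the gene a (nonagouti), which encodes the agouti signalling protein of coat colour. Its value was 3.07, 5.69 and 4.06 RPKM at CT23, CT29 and CT41 and 0.885, 3.21 and 0.959 RPKM at CT47, CT53 and CT65. It was lower in each pair, by 3.47-fold, 1.77-fold and 4.24-fold, although the value of CT53 exceeded that of CT23. The mean log2 difference was -1.25 (SE 0.19, limma adjusted p = 0.00388), from 116 reads in the 6 libraries together. In mm9 the gene spans chromosome 2 from 154617138 to 154873463 on the plus strand with 5 exons, and every read lay in exon 1, from 154617138 to 154617284. Exons 2 to 5 were at 0 reads in every library. That first exon is also the end of exon 1 of Raly, which encodes an RNA-binding protein, on the same strand from 154616869. The reads therefore cannot be assigned to the agouti gene.

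Within Raly the difference between the days was seen at its start and not along the gene. Exon 1 of Raly held 23, 36 and 26 reads on the first day and 6, 21 and 7 on the second. Exon 8 held 111, 102 and 147 reads on the first day and 171, 168 and 95 on the second. Raly as a whole was at 10.7, 10.8 and 15.2 RPKM on the first day and 13.9, 17.04 and 9.32 RPKM on the second, with overlapping days (log2 0.11, SE 0.22, limma adjusted p = 1).

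The other call was Egfros, a noncoding transcript annotated within the span of Egfr on the opposite strand, on chromosome 11 from 16715434 to 16730705 of mm9. Egfros was at 2.15, 3.13 and 0.842 RPKM on the first day and 0.458, 1.52 and 0.355 RPKM on the second. Each second-day value was below its partner, by 4.70-fold, 2.05-fold and 2.37-fold, and the days overlapped. The mean log2 difference was -0.99 (SE 0.18, limma adjusted p = 0.0374) from 428 reads, nearly all of them in exon 2. The intron of Egfros gave 3.27, 4.25 and 1.13 RPKM on the first day and 0.775, 1.59 and 0.585 RPKM on the second (log2 -1.38), the smallest p of all introns tested, with an adjusted p of 0.991 by limma. Because the strand of the reads is not known, these reads cannot be told apart from unspliced RNA of Egfr. The introns of Egfr, which encodes the epidermal growth factor receptor, were at 2.21, 1.38 and 1.16 RPKM on the first day and 0.826, 1.33 and 0.719 RPKM on the second (log2 -0.66, limma adjusted p = 1). Egfr exons showed no such difference, with 73.9, 40.1 and 63.1 RPKM against 47.1, 63.8 and 62.7 RPKM (log2 0.00, SE 0.23).

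Neither call held under all settings, also with all 6 libraries kept. By limma the adjusted p of the gene a was 0.0571 after TMM rescaling and 0.803 without the filter on low reads. That of Egfros was 0.4 and 0.999, and neither gene was called by edgeR or DESeq2. Without CT41 and CT65 the adjusted p from limma was 0.153 for the gene a and 0.0838 for Egfros, and without CT23 and CT47 it was 0.491 for Egfros. In the left-out pair both were higher at CT59 than at CT35, by 0.51 and 0.20 (log2).

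None of the genes that follow was called. They are those of smallest p that moved 1 way in all 3 pairs, up to 15 in each direction, which fixes their direction. Onecut1 (HNF6), a factor of liver development and metabolism, was at 57.3, 39.1 and 47.7 RPKM at CT23, CT29 and CT41. At CT47, CT53 and CT65 it was at 9.66, 27.2 and 18.5 RPKM. The days did not overlap, and the mean log2 difference of -1.46 (SE 0.31) had an adjusted p of 0.637 by limma, since the pairs ranged from 1.44-fold to 5.94-fold. In the left-out pair the order was the opposite, with Onecut1 higher at CT59 by 0.52 (log2). Reads spliced across its single intron differed by -1.08 (log2, edgeR adjusted p = 1), but not in all 3 pairs. They were fewer at CT47 than at CT23 and at CT53 than at CT29. At CT65 they were at 3.88 per M junction reads, against 3.67 at CT41. Exon 2 held 88 reads at CT41 and 85 at CT65, so that pair differed mainly in exon 1 (969 and 427 reads). With a filter of 100 reads in place of 20, Onecut1 was the 1 gene called (limma adjusted p = 0.000221). By limma its adjusted p was 1.4e-06 without CT29 and CT53, its pair of smallest difference, but 0.591 without CT41 and CT65 and 0.506 without CT23 and CT47. Under the other settings it ran from 0.544 to 1.

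Cebpb, which encodes C/EBP beta, a factor induced by inflammation and fasting, was at 2.35, 13.8 and 6.14 RPKM on the first day and 1.65, 3.21 and 1.58 RPKM on the second. The 2 highest values were both of the first day, and its CT23 value lay within the range of the second day. The mean log2 difference was -1.34 (SE 0.25, limma adjusted p = 0.217). In the left-out pair Cebpb was lower at CT59 as well, at 3.90 RPKM against 34.1 RPKM at CT35 (log2 -2.975). The gene has 1 exon with a GC content of 67.2%, of which 20.7% is shared with Tmem189. By limma its adjusted p was 1.7e-08 without CT23 and CT47, its pair of smallest difference, but 0.052 without CT29 and CT53 and 0.528 without CT41 and CT65. Under the other settings it was not called, with 0.0573 (DESeq2) to 1. Cebpa and Foxa2, which also encode transcription factors, were picked out after their values had been seen. No list of such factors was drawn up. Cebpa was at 40.2, 57.4 and 83.6 RPKM against 28.6, 52.9 and 32.5 RPKM (log2 -0.65, SE 0.23). Foxa2 was at 22.5, 21.6 and 19.9 RPKM against 10.9, 16.0 and 16.3 RPKM (log2 -0.57, SE 0.21). Foxa2 did not overlap between the days, Cebpa did.

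The other lower genes held a serpin pseudogene, a stress gene and several that share exons with a neighbour. Serpina4-ps1, a pseudogene of the serpin family, was at 300.1, 74.8 and 308.2 RPKM on the first day and 137.1, 69.2 and 152.7 RPKM on the second (log2 -0.75, SE 0.23, limma adjusted p = 1). It was about as high at CT53 as at CT29 and lower on the second day at the other phases, and its introns differed by -1.25 (log2). In the left-out pair it was lower at CT59 too (log2 -0.98). Ndrg1, a gene induced by hypoxia and stress, was at 5.74, 9.58 and 3.14 RPKM against 3.25, 5.93 and 2.44 RPKM (log2 -0.56, SE 0.18). Of the 15 lower genes, 6 share over 20% of their exon bases with another gene, among them Mamdc4 and Phpt1 with each other, Ggt7 with Acss2 and Gm12953 with Tmem69. The remaining lower genes were Gm6981, Fam172a, Ntng2, Ctf1 and Zfp771, with log2 differences between -0.85 and -0.51. In 8 of the 15 the days did not overlap, against 0.834% of all genes, but the choice by small p and 3 like pairs favours such genes.

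Among the higher genes, Bcl6, a zinc finger repressor that restrains lipid and sex-biased gene programmes in liver, was at 13.2, 4.98 and 23.99 RPKM at CT23, CT29 and CT41 and at 31.4, 10.4 and 30.7 RPKM at CT47, CT53 and CT65. Each second-day library was above its partner, by 2.38-fold, 2.10-fold and 1.28-fold, while the days overlapped because the level also followed the phase. The mean log2 difference was 0.86 (SE 0.21, limma adjusted p = 0.426). In the left-out pair Bcl6 was higher at CT59 too (log2 0.285). Reads across the junctions of Bcl6 were 35.3, 15.4 and 58.7 per M junction reads on the first day and 83.2, 25.0 and 89.5 on the second, the smallest p of all genes in that readout (edgeR unadjusted p = 0.000448, adjusted p = 0.939). Pdk4, the kinase that shuts pyruvate out of oxidation during fasting, was at 2.31, 0.740 and 1.89 RPKM against 4.21, 1.75 and 2.44 RPKM (log2 0.64, SE 0.18, limma adjusted p = 1). It was next in the junction ranks (log2 1.02, edgeR unadjusted p = 0.000507).

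The smallest p in this direction was that of Slc17a8, a vesicular glutamate transporter. It was at 1.28, 0.578 and 1.05 RPKM on the first day and 1.90, 1.68 and 2.60 RPKM on the second. The days did not overlap (log2 0.82, SE 0.18, limma adjusted p = 0.217). Rhbg, an ammonium transporter, was at 1.77, 1.22 and 1.56 RPKM against 2.68, 3.41 and 3.02 RPKM, again without overlap (log2 0.81, SE 0.19, limma adjusted p = 0.255). Slc17a8 and Rhbg went the other way in the left-out pair (log2 -0.69 and -0.435). With libraries weighted by their estimated quality, Bcl6, Slc17a8, Rhbg, Cyp2a22 and Cyp2a5 passed the test in this direction.

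Cyp7a1, the rate-limiting enzyme of bile acid synthesis, was at 10.6, 7.95 and 22.3 RPKM on the first day and 32.3, 9.92 and 28.1 RPKM on the second (log2 0.73, SE 0.23, limma adjusted p = 1). Most of that difference came from the late subjective night, where it was 3.04-fold, against 1.25-fold and 1.26-fold at the other phases. Csad, which makes the taurine that bile acids are coupled to, was at 78.1, 32.8 and 33.1 RPKM against 109.2, 78.9 and 49.8 RPKM (log2 0.77, SE 0.22, limma adjusted p = 1). Its introns differed by 0.82 (log2, limma adjusted p = 1), as much as its exons. The left-out pair did not go along for either gene, with log2 differences of -0.17 for Cyp7a1 and -0.41 for Csad. The other higher genes were Gm16272, which shares 40.2% of its exon bases with Ndufb2, Cyp2a22, Fhit, Clstn3, Bhmt-ps1, Abcc4, Mospd1, Gm11695 and Fitm1, with log2 differences of 0.54 to 0.98. In 7 of the 15, chosen in the same way, the days did not overlap, against 2.33% of all genes.

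**Figure D2:**
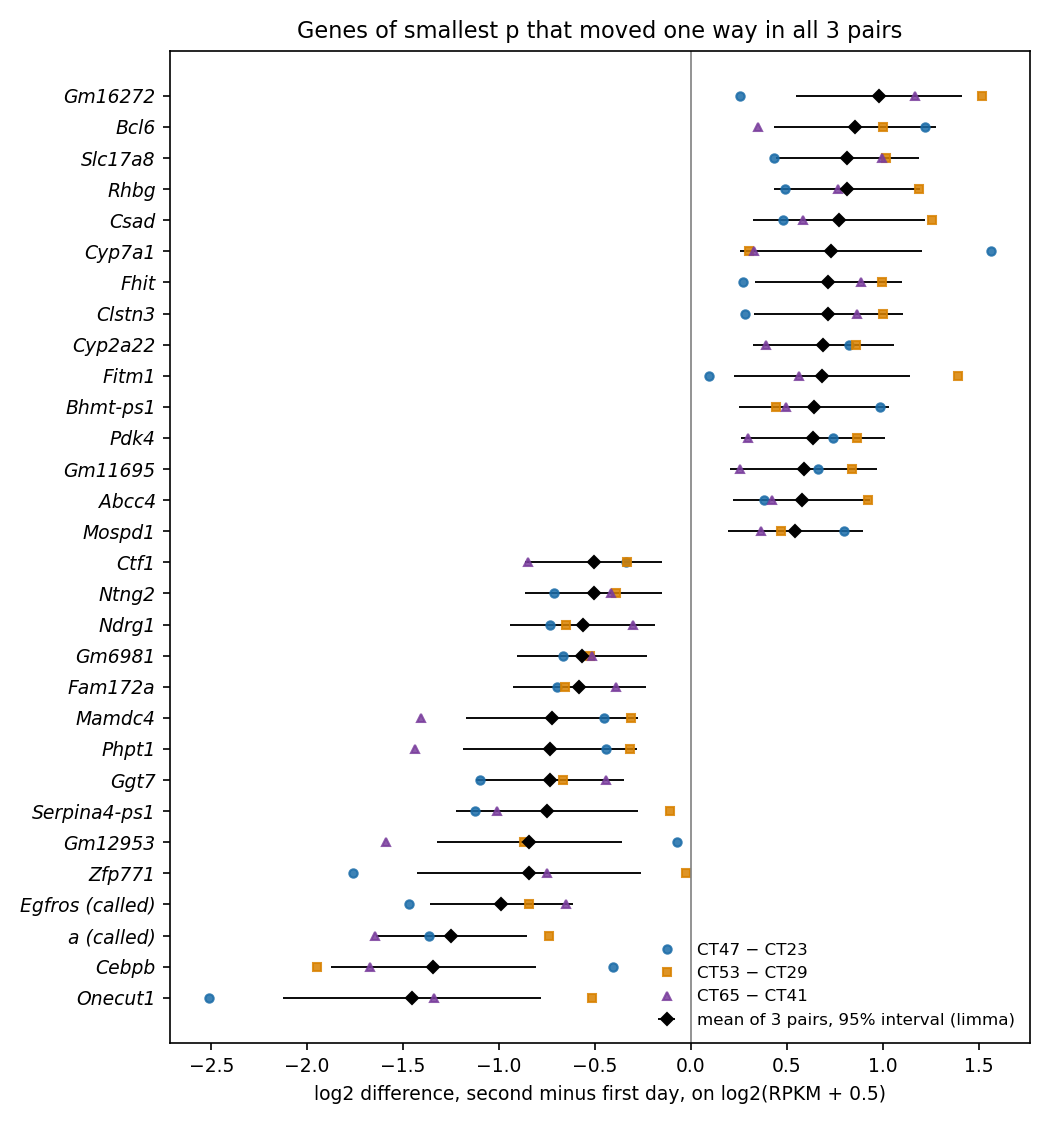
Log2 difference between second and first day (x axis, log2(RPKM + 0.5) scale) of the 15 genes of smallest p in each direction that moved 1 way in all 3 pairs (y axis). Coloured symbols are single pairs of libraries, black diamonds their mean and bars the 95% confidence interval from limma. The gene a and Egfros are the 2 called, and the pairs of Onecut1 spread from -2.51 to -0.52.

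Introns and splice junctions of the same libraries were then read. No gene was called in introns (0 of 6679 by limma, 198 or 2.96% at an unadjusted p under 0.05, 1.9% higher and 1.06% lower) or in junctions (0 of 7890 by edgeR, 194 or 2.46% at that threshold, 0.989% higher and 1.47% lower, and 0 by DESeq2 with 77). Of the 15 higher genes, 6 had enough intron reads and all 6 were higher there, where 59.2% of all genes were. All 11 with junction reads were higher too, against 50.1% of all genes. Of the 15 lower genes, 5 of 6 were lower in introns (40.8% of all genes) and 3 of 3 in junctions (49.9%). Exons, introns and junctions come from sequencing of the same 6 RNA pools, so the sampling is not repeated. Reads across junctions lie in exons, and the genes were chosen by their direction in exons. The like direction in junctions was thus largely set by that choice and is no separate support. The left-out pair is other animals. There 9 of the 15 higher genes were higher (47.5% of all genes) and 4 of the 15 lower genes lower (52.5%).

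The clock genes differed little between the days beside their differences between the phases. Of 23 clock genes tested, none was called, the smallest unadjusted limma p was 0.0635 and the largest mean log2 difference was 0.39 in size. Their 95% confidence intervals reached at most from -0.89 (Npas2) to 0.84 (Usp2, a deubiquitinating enzyme). By contrast, 14 of them differed by 2-fold or more between the 3 phases in the mean log2 level of the days. In all 14 this phase range exceeded the largest difference between the days at any phase. The choice of the 14 by a wide range in these same libraries favours that outcome. The median size of the day differences of the clock genes was 0.38 (log2), and that of their differences between phases was 1.16. Over all genes the same medians were 0.23 and 0.27, and the phases differed by more than the days in 20 of 23 clock genes and in 58.7% of all genes.

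The activators were highest late in the subjective night on both days. Arntl was at 11.6 and 12.9 RPKM at CT23 and CT47, at 3.78 and 1.72 RPKM at CT29 and CT53, and at 6.45 and 9.08 RPKM at CT41 and CT65. Npas2 was at 5.48 and 4.08 RPKM, 0.895 and 0.135 RPKM, and 0.123 and 0.362 RPKM at the same times. Both thus had less at CT53 than at CT29 and more at CT65 than at CT41. Clock itself varied less between these 3 phases, from 4.17 to 7.25 RPKM. At the left-out phase it was lower on both days, at 2.03 RPKM at CT35 and 2.57 RPKM at CT59.

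Repressors and output factors differed in the other direction at these phases. Nr1d1 (REV-ERB alpha) was at 104.0 and 148.9 RPKM at CT29 and CT53 and at 5.31 and 2.70 RPKM at CT41 and CT65. Dbp, a PAR bZIP factor, was at 20.9 and 39.9 RPKM at CT29 and CT53 and at 4.25 and 2.22 RPKM at CT41 and CT65, after 0.515 and 0.520 RPKM at CT23 and CT47. Per3 was at 1.26 and 2.18 RPKM at CT29 and CT53 and at 3.39 and 1.66 RPKM at CT41 and CT65. At the same times Per2 was at 3.18 and 5.59 RPKM and at 24.5 and 19.9 RPKM, and Tef, a relative of Dbp, at 11.5 and 20.6 RPKM and at 17.3 and 12.3 RPKM. Every one of these was higher at CT53 than at CT29 and lower at CT65 than at CT41. Cry1 (1.24 and 1.04 RPKM, 5.30 and 5.16 RPKM) and Nr1d2 (7.59 and 7.14 RPKM, 1.91 and 1.61 RPKM) were close at both phases.

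Of the 14 clock genes with a 2-fold phase range, 10 were higher at CT53 than at CT29 and lower at CT65 than at CT41, and 2 (Arntl and Npas2) did the reverse. Opposite signs at these phases were thus seen in 85.7% of them and in 62.3% of all genes. With medians made equal within bins of GC content the shares were 92.9% and 56.6%, with 9 genes in the first direction and 4 in the second. Of the 14, 10 had their highest of the 3 phases at the same phase on both days and 10 their lowest. The 4 whose highest phase differed (Per1, Per3, Tef and Ciart) were all highest at CT41 on the first day and at CT53 on the second. The left-out phase (CT35 and CT59) lies between these. There Per3 (7.27 and 8.19 RPKM), Tef (33.4 and 34.2 RPKM) and Ciart (14.0 and 12.6 RPKM) were higher than at any of the 3 phases. Per1 was at 8.97 and 16.5 RPKM there, against 9.15 RPKM at CT41 and 9.725 RPKM at CT53. The highest of the 3 phases is thus not the peak of Per3, Tef or Ciart. Each of these differences is between single pools, and none was tested by itself.

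**Figure D3:**
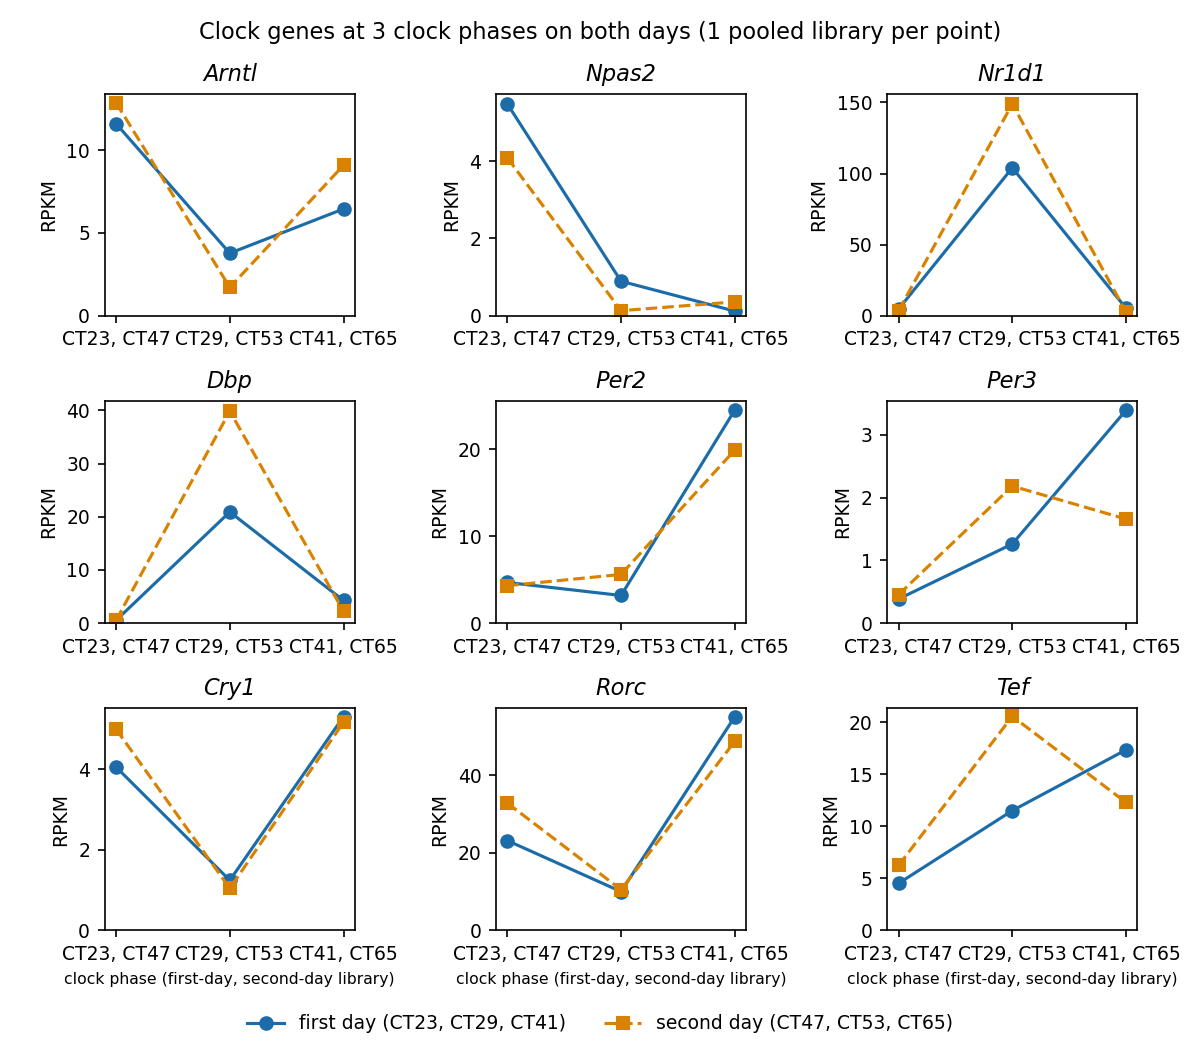
RPKM (y axis, from 0) of 9 clock genes at the 3 clock phases (x axis) on the first day (circles, solid line) and the second day (squares, dashed line), 1 pooled library per point. The lines of the days lie close beside the range between phases, for example 104.0 and 148.9 RPKM for Nr1d1 at CT29 and CT53 against 2.70 to 5.31 RPKM at the other phases, and they cross between CT29 or CT53 and CT41 or CT65 for Arntl, Per3 and Tef.

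Among known targets of the clock, none of 22 was called (median log2 0.02, smallest unadjusted limma p 0.14). Phases differed by more than days in 20 of 22. Of the 11 targets with a 2-fold phase range, 7 had the same highest phase on both days and 9 the same lowest. At CT53 and CT65, 3 of the 11 were higher and then lower than on the first day, 2 did the reverse and 5 were lower at both, so that 45.5% had opposite signs against 62.3% of all genes. Elovl3, a fatty acid elongase, was at 120.1 and 155.6 RPKM at CT23 and CT47 and at 39.2 and 38.1 RPKM at CT29 and CT53. Lpin1, a phosphatidate phosphatase of triglyceride synthesis, matched at CT23 and CT47 (4.56 and 4.77 RPKM) and at CT29 and CT53 (20.6 and 22.4 RPKM) but was at 38.0 RPKM at CT41 and 11.7 RPKM at CT65. Alas1, the rate-limiting enzyme of haem synthesis, had a phase range of 1.56-fold in the mean of the days. Within the first day alone it ran from 94.5 to 276.0 RPKM. Alas1 was at 109.1 and 102.6 RPKM at CT23 and CT47. Its values then differed in opposite directions, with 94.5 RPKM at CT29 against 210.4 RPKM at CT53 and 276.0 RPKM at CT41 against 98.5 RPKM at CT65. Por, the electron donor of the cytochromes P450, had a range of 1.74-fold in that mean but ran from 114.9 to 267.2 RPKM on the first day. It was at 116.0 against 215.5 RPKM at CT29 and CT53 and at 267.2 against 185.6 RPKM at CT41 and CT65.

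The largest differences within a single phase were listed per pair, by a rule chosen after values had been seen (the 5 largest each way at a mean of at least 5 RPKM), and have no test. Genes sharing many exon bases with another gene did not enter, such as Gm16272 (40.2% shared, log2 1.51 between CT53 and CT29). The largest listed differences (log2) were -2.51 for Onecut1 (CT47 against CT23), 2.34 for Gm11808 (CT53 against CT29) and -2.84 for Tmem238 (CT65 against CT41). Tmem238 also differed by -2.19 between CT47 and CT23, and Rpl38 by -1.79 between CT53 and CT29. The genes named next are a selection without the largest of any pair. Between CT47 and CT23, Egr1, an immediate early factor, was at 5.53 against 17.1 RPKM, and Ces2c, a carboxylesterase, at 27.8 against 9.44 RPKM. Cyp4a14, a target of the fatty acid receptor PPAR alpha, was at 46.4 against 16.6 RPKM there, at 178.2 against 138.4 RPKM for CT53 and CT29, and at 33.5 against 63.4 RPKM for CT65 and CT41. Between CT53 and CT29, Cyp26a1, which degrades retinoic acid, was at 6.09 against 2.01 RPKM, but at 3.92 against 10.8 RPKM between CT65 and CT41. Mt2, a metallothionein, was at 8.82 against 24.4 RPKM in the first of these pairs and at 3.89 against 1.69 RPKM in the other. Between CT65 and CT41, Cish, a feedback inhibitor of growth hormone signalling, was at 1.73 against 8.11 RPKM, and Mfsd2a, a transporter of lysophosphatidylcholine, at 2.92 against 13.7 RPKM. Hamp, the iron hormone hepcidin and among the most abundant transcripts, was not picked by this rule. It was at 4497 against 11314 RPKM between CT47 and CT23 and at 9286 against 5158 RPKM between CT53 and CT29. Between CT65 and CT41 it was at 8992 against 10961 RPKM. Of the genes in this paragraph, only Cish, Onecut1 and Gm16272 moved 1 way in all 3 pairs.

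No gene was called in any of 32 pathway lists with 708 distinct genes. The medians of their log2 differences ran from -0.10 (immediate early genes) to 0.22 (cholesterol synthesis), against 0.03 over all genes. Of 23 genes of cholesterol synthesis, 10 (43.5%) were higher in all 3 pairs, against 9.85% of all genes, and 1 was at an unadjusted p under 0.05. Msmo1, a sterol oxidase, was at 32.9, 52.8 and 24.4 RPKM against 51.9, 48.2 and 48.1 RPKM, so its difference at CT29 and CT53 was the other way. In the left-out pair the median of this list was -0.42.

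Of 21 bile acid genes, 8 (38.1%) were higher in all 3 pairs and 3 were at an unadjusted p under 0.05, with a median log2 difference of 0.12. Beside Cyp7a1, Cyp8b1, the enzyme that sets the share of cholic acid, was at 190.4, 156.6 and 99.6 RPKM on the first day and 235.3, 221.1 and 195.0 RPKM on the second (log2 0.59, SE 0.22, limma adjusted p = 1). All 3 second-day values of Cyp8b1 were above all 3 first-day ones. Among 30 cytochromes P450, 9 (30.0%) were higher in all 3 pairs and 5 were at an unadjusted p under 0.05, against 0.99% of all genes. Cyp2a5, which oxidizes coumarin and nicotine, was at 141.2, 180.9 and 484.3 RPKM against 325.6, 432.6 and 445.9 RPKM (log2 0.78, SE 0.25), so that the last pair was even. Its close paralog Cyp2a4, with which reads may be shared, was at 3.05, 1.16 and 5.93 RPKM against 3.53, 6.52 and 9.75 RPKM (log2 0.98, SE 0.34). Of 24 genes of the unfolded protein response, 6 (25.0%) were higher in all 3 pairs, with a median of 0.18.

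Detoxifying enzymes outside the cytochromes were split between the pairs. Of 29 conjugating enzymes, 5 (17.2%) were higher in all 3 pairs, and of 17 targets of the oxidative stress factor NRF2, 5 (29.4%), against 9.85% of all genes. The medians of conjugating enzymes were 0.27, 0.16 and -0.14 in the order CT47, CT53 and CT65, and those of the NRF2 targets 0.38, 0.37 and -0.17. Gstm2, a glutathione transferase, was at 24.1, 28.4 and 23.5 RPKM against 37.3, 42.5 and 32.4 RPKM (log2 0.55, SE 0.20). Its first-day values were all below its second-day values. Gstm3 differed mainly at CT29 and CT53 (78.0 against 170.8 RPKM) and was lower at CT65 (89.6 RPKM) than at CT41 (105.1 RPKM).

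Genes of gluconeogenesis and amino acid use showed the split between the pairs in single genes. Pck1, the enzyme that commits carbon to glucose, was at 115.5, 289.2 and 174.8 RPKM against 190.5, 473.1 and 172.7 RPKM, higher in the first 2 pairs and even in the third (log2 0.47, SE 0.23). Oat, which degrades ornithine, was at 59.9, 109.6 and 71.1 RPKM against 130.8, 121.8 and 81.7 RPKM, higher in all 3 pairs but mainly at CT47 (log2 0.49, SE 0.23). Tat, a tyrosine-degrading target of glucocorticoids, was at 381.5, 301.0 and 755.4 RPKM against 545.2, 367.7 and 650.7 RPKM.

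Inflammatory and stress lists held members on both sides of 0. Of 27 acute phase genes (median -0.01), 3 (11.1%) were higher and 0 lower in all 3 pairs, against 9.85% and 5.51% of all genes. Socs3, an inhibitor of cytokine signalling, was at 2.85, 2.11 and 1.19 RPKM against 1.25, 1.83 and 1.297 RPKM. Of 23 interferon genes, Cxcl9 was at 2.14, 2.86 and 1.35 RPKM against 2.16, 4.29 and 3.05 RPKM, while Gbp7 was at 1.33, 2.91 and 1.06 RPKM against 0.979, 1.27 and 1.13 RPKM. Of 12 immediate early genes, none moved 1 way in all 3 pairs, against 15.4% of all genes. Among them, Dusp1, a phosphatase induced by stress, was at 17.1, 14.3 and 21.5 RPKM against 11.4, 9.66 and 24.5 RPKM. Of 14 cell cycle genes, the replication helicase subunit Mcm3 was at 1.25, 1.41 and 1.45 RPKM against 2.61, 1.70 and 2.05 RPKM. The ribonucleotide reductase subunit Rrm2 went the other way, with 0.876, 1.14 and 1.56 RPKM against 0.637, 0.696 and 1.02 RPKM.

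The list medians were above 0 in 29 of 32 pathway lists for CT47 against CT23, in 26 for CT53 against CT29 and in 10 for CT65 against CT41. All genes had medians of 0.10, 0.07 and -0.08 in these pairs, and 24, 24 and 12 of the lists lay above those. Targets of PPAR alpha, 25 genes of fatty acid oxidation and fasting, had medians of 0.49, 0.35 and -0.25 in that order. Oxidative phosphorylation (45 genes) had 0.37, 0.18 and -0.38, and ribosomal proteins (55 genes) 0.27, 0.12 and -0.29. On the deposited scale, only the cholesterol synthesis, bile acid, unfolded protein, cytochrome P450 and growth hormone lists had medians above 0 in all 3 pairs. The list of genes with sex-biased expression under growth hormone (27 genes) had medians of 0.10, 0.09 and 0.34. Fatty acid and triglyceride synthesis, glycolysis, gluconeogenesis, urea cycle and coagulation genes each had a median no further from 0 than 0.08 over the 3 pairs.

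**Figure D4:**
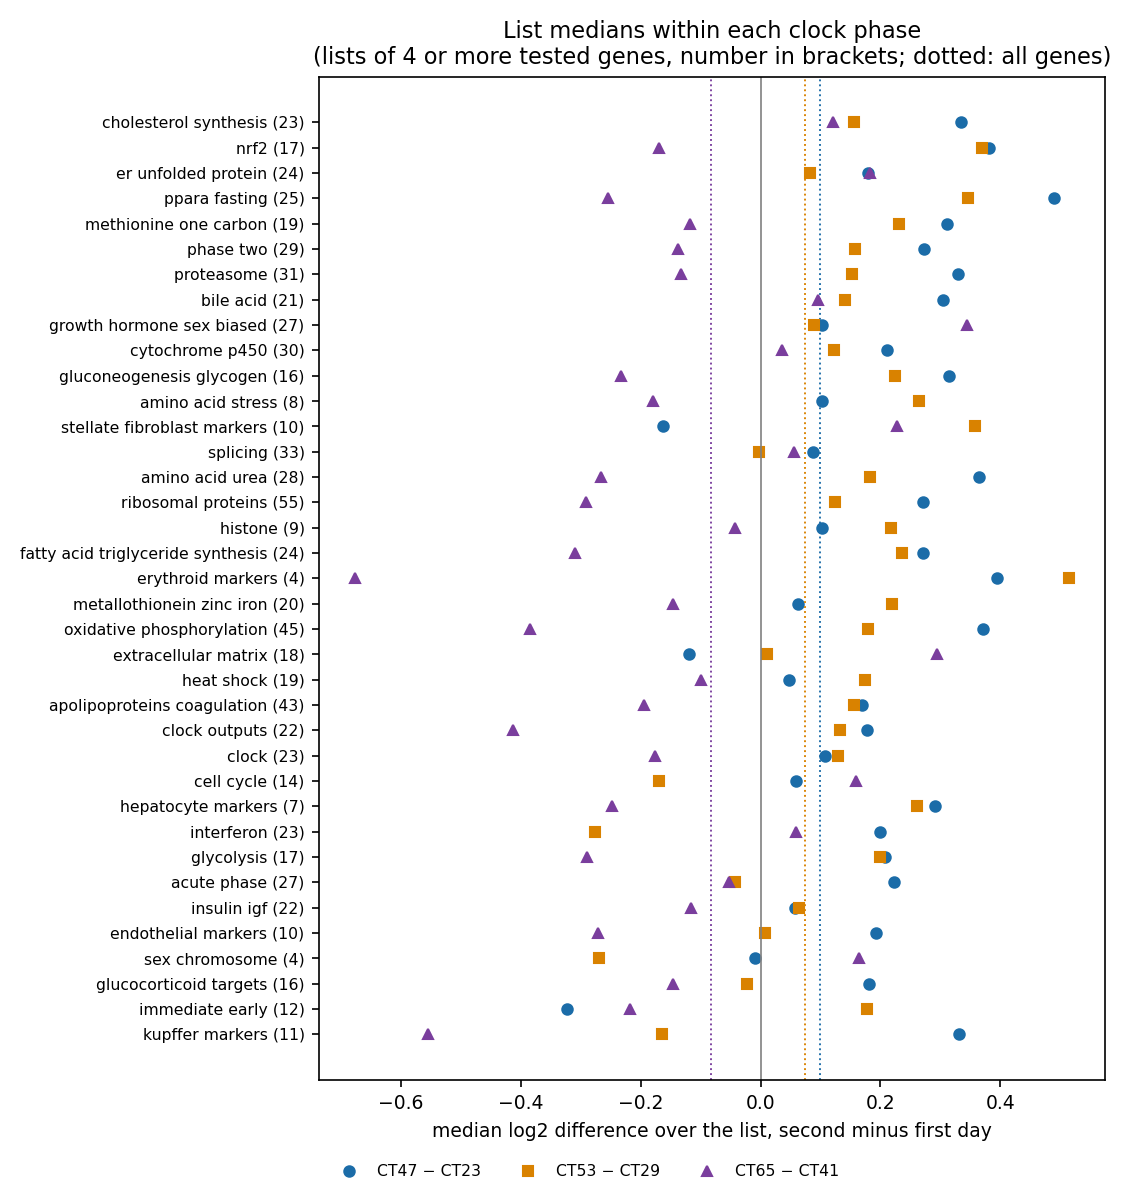
Median log2 difference between second and first day (x axis) of each gene list with at least 4 tested genes (y axis, number tested in brackets), for each of the 3 pairs of libraries. Dotted lines give the medians of all genes in the same colours. The symbols of CT65 against CT41 lie left of the other two for most lists, while for cholesterol synthesis all 3 lie above 0.

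No gene was called in 12 marker lists with 53 genes, of hepatocytes, of other liver cells and of neighbouring tissues. In bulk RNA, fewer cells of a type and less RNA per cell cannot be told apart. The 11 Kupffer cell markers had a median log2 difference of -0.14, with Marco and Cd68 at an unadjusted p under 0.05. Their summed level was 91.0 to 145.5 RPKM on the first day and 84.9 to 134.2 RPKM on the second. Their medians by pair were 0.33, -0.16 and -0.56, so CT65 and CT41 differed most. The sums overlapped between the days for endothelial markers as well (66.5 to 75.8 and 64.6 to 84.6 RPKM), for stellate cell and fibroblast markers (119.0 to 147.8 and 131.1 to 147.2 RPKM) and for red cell markers (76.2 to 98.3 and 65.6 to 127.1 RPKM). Their part in the gene differences above was not tested.

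The base composition of the genes moved with the pair differences. The tested genes were cut into 5 bins of equal size by GC content. From the lowest bin (31.3 to 44.7%) to the highest (55.9 to 72.3%), the median log2 difference went from -0.13 to 0.19 between CT53 and CT29, and from 0.07 to -0.20 between CT65 and CT41. Between CT47 and CT23 it was 0.05 in both outer bins and 0.15 in the middle one. Over the 3 pairs together these slopes offset each other, with medians from -0.01 to 0.05. Of the lower genes above, Cebpb (67.2%), Zfp771 (68.7%) and Cebpa (62.6%) are rich in GC, Onecut1 (49.7%) is not. With medians made equal within 20 bins of GC content, 0 genes were called (218 at an unadjusted p under 0.05), and the part of base composition in single genes was not tested.

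**Figure D5:**
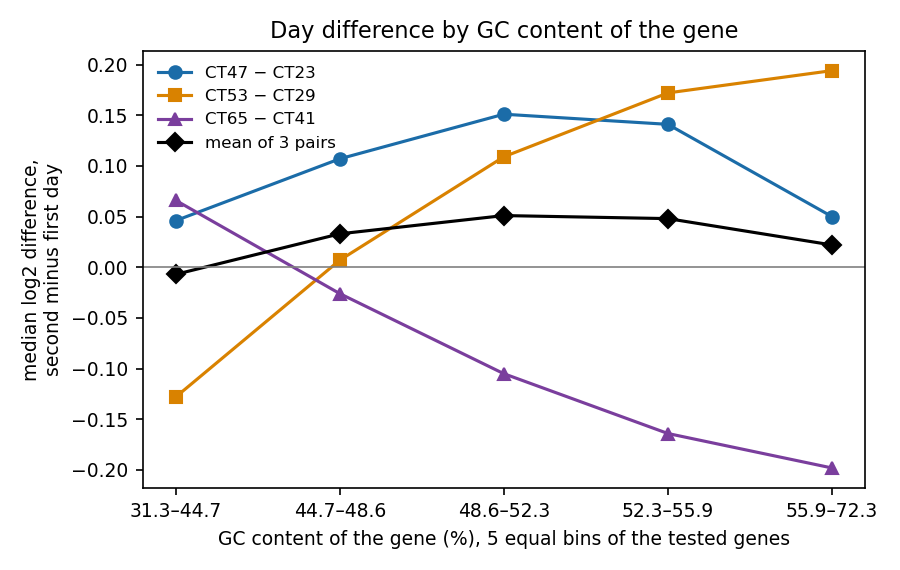
Median log2 difference between second and first day (y axis) over 5 equal bins of the tested genes by GC content (x axis, range of each bin in percent). Coloured lines are the single pairs and the black line the mean of the 3; the lines of CT53 against CT29 and CT65 against CT41 run in opposite directions, to 0.19 and -0.20 in the bin highest in GC.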

How the data were processed

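Polyadenylated liver RNA was sequenced from 8 pools, 1 per time, of which 6 enter the test. The genome build was mm9, per the submitters' processing notes. The deposited feature tables list a lower and an upper value per transcript, exon and intron, named min and max per the file headers. They behave as RPKM, and each lower value is a whole number of reads per length and depth (within 0.1 read). The meaning of lower against upper, the quantifying program, the RUM version and the strand setting: not given in the sources used here. Deposited junction counts come from RUM's high-quality junctions, per the file headers. Of 115699 transcripts, 79709 were named through the GRCm38.p6 annotation, which also gave GC content and no coordinates. Each of 24143 genes was represented by its transcript with the most reads in the 6 libraries.

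Genes with at least 20 recovered reads in 3 libraries were tested with limma 3.58.1 (trend, robust) on log2(lower value + 0.5), with the phase as a block and 2 residual degrees of freedom. Introns were tested likewise with a pseudocount of 0.1, and junction counts with edgeR 4.0.16 (quasi-likelihood). Fold changes on these scales understate changes of low genes. P-values were adjusted by Benjamini-Hochberg over all genes of a readout, with 0.05 as the threshold. DESeq2 1.42.0 and other scalings, filters and weights were alternatives. The code was tested on simulated data. Named were up to 15 genes per direction with a mean of at least 1 RPKM (called, else smallest p with 3 pairs alike), all clock genes, and per list up to 3 of smallest p and 2 of highest level, of which the text gives a selection. The genes, lists and libraries compared were chosen with earlier results of these data known.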

Additional observations from a re-analysis of the deposited data

How the results depend on the processing

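For the exon day contrast 2 genes were called. It called 0 after TMM rescaling, without a filter on low reads, with no replicate block (phases ignored, 62 at an unadjusted p under 0.05), with all 8 libraries and either 4 phases as block or a cosine and sine of 24 h, with edgeR, with DESeq2, within bins of GC content, and among genes sharing under 20% of exon bases. The last 2 settings were chosen after seeing the data. It called 1 gene with equal medians, 1 with at least 100 reads, and 8 with array weights (5 higher, 3 lower), or 2 when these were joined to equal medians, also chosen after seeing the data. Without 1 pair, which leaves 1 residual degree of freedom per gene, it called 6 to 15 genes: 12 without CT29 and CT53, 6 without CT41 and CT65, and 15 without CT23 and CT47. The cause was not tested.

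The intron day contrast gave 0 calls, 1 with at least 50 reads, 3 with all 8 libraries, and 0 to 91 without 1 pair, the 91 without CT41 and CT65. The junction day contrast gave 0 calls, 3 without a filter, and 1 to 42 without 1 pair, the 42 again without CT41 and CT65. For the pair differences, the number of genes alike in all 3 was 1675, and 1746 with equal medians. No called value changed direction. Of the values of single genes under the exon alternatives, 3932 kept their side of the threshold, 16 came to pass it, 21 (all of the gene a or Egfros) no longer passed it, and 86 of genes not called moved by over 1 SE and across 0. In the exon day contrast the median of all genes was 0.03 as deposited, 0.00 after TMM and 0.06 with array weights. Depth limits genes near 20 reads, and 3 pools a side limit all.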
